A study of Mus musculus with 70 samples.

Results

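The genes described here are those of the inflammatory caspases and of pyroptosis, a lytic form of cell death: Casp1, Casp4, Casp12, Gsdmd, Gsdme, Pycard, Il18 and Il18bp. They were taken by gene symbol, and all 8 were found among the 35197 genes of the count table. All 8 were also among the 16147 genes that passed the filter on low counts, so each was tested in every line. RNA was sequenced from 8 mouse cancer cell lines grown in culture, each left unstimulated (NS) or exposed for 48 h to interferon beta (IFNb, 1000 activity units per mL) or interferon gamma (IFNg, 100 ng per mL). The pancreatic cancer lines are Panc02.3 and KPC.2, the melanoma lines YUMMER1.7 and B16.1, and the colorectal cancer lines MC38.7 and CT26.2; Renca is a renal and LLC a lung cancer line. The strain is C57BL/6 except for Renca and CT26.2, which are of BALB/c origin, and all groups shared the same serum-supplemented DMEM. Of the 24 groups of line and treatment, 22 hold 3 libraries, and LLC with IFNg and unstimulated Renca hold 2. Levels are given as CPM, a library's counts scaled by its TMM-adjusted total, and log2 fold changes, standard errors (SE) and adjusted p-values come from edgeR's quasi-likelihood test on all 70 libraries with Benjamini-Hochberg adjustment over all genes tested. A ± after a level is the SD over the 3 libraries of a group (2 for LLC with IFNg and unstimulated Renca). "Rose" and "fell" are used where the adjusted p was under 0.05.

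In canonical pyroptosis, a sensor protein recruits the adaptor ASC, encoded by Pycard, which clusters pro-caspase-1, encoded by Casp1. Caspase-1 then cuts pro-IL-18 into the active cytokine and cuts gasdermin D, encoded by Gsdmd, whose freed part forms pores in the plasma membrane. In the non-canonical route, the caspase encoded by mouse Casp4 (long called caspase-11) binds bacterial lipopolysaccharide in the cytosol and cuts gasdermin D directly. Casp12 encodes a further member of the caspase-1 family, Gsdme encodes gasdermin E, a pore former cut by caspase-3, and Il18bp encodes a secreted protein that binds and neutralises IL-18. Interferons signal through STAT factors, and sites known as ISRE and GAS elements are the DNA sequences that the factors they activate bind.

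Casp1, Casp4 and Casp12 are neighbours on the forward strand of chromosome 9 in GRCm38: Casp1 spans 5298517 to 5307265, Casp4 5308828 to 5336783 and Casp12 5345430 to 5373032. Their promoters are shown because all 3 genes rose with IFNg in most lines, together with that of Il18bp, which rose in all 8. Each is a 300-base window around a RefSeq start, build GRCm38.p6, printed 5′ to 3′ on the gene's strand. RefSeq starts need not be those of the gene spans given here, which come from another annotation. The windows lie at chr9:5345226-5345525, chr9:5298267-5298566 and chr9:5308599-5308898 on the forward strand and at chr7:102018183-102018482 on the reverse strand (for Casp4, the first of 2 listed starts). Capitals mark matches to a GAS motif.
Casp12: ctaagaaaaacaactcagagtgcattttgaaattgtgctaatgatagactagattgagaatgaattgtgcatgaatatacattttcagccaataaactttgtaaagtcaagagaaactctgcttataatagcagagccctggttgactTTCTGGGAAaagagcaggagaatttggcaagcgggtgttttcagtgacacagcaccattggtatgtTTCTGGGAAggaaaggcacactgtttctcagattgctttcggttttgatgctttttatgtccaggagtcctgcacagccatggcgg
Casp1: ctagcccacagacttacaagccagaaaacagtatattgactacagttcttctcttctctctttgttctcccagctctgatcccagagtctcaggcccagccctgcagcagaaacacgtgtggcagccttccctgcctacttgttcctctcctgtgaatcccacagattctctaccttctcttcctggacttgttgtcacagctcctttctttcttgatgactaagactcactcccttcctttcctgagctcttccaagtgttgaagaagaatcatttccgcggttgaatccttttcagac
Casp4: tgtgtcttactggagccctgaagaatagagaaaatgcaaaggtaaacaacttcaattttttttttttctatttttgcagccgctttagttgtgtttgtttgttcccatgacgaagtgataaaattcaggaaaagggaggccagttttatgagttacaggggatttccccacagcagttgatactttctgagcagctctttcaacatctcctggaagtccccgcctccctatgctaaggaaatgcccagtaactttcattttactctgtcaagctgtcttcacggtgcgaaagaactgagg
Il18bp: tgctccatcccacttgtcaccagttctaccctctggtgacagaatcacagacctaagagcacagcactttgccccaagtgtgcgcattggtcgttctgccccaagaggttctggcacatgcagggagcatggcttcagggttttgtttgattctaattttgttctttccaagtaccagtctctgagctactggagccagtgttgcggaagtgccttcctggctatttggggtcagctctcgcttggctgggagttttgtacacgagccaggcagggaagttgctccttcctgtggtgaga

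The motifs searched were GAAA, any 2 bases and GAAA again for an ISRE, and TTCNNNGAA for a GAS element, each on both strands. The Casp12 window holds 2 GAS matches with the same letters, TTCTGGGAA, which begin at -102 and -36 relative to the start and overlap no ISRE match. No match to either motif was found in the windows of Casp1, Casp4, Il18bp, Gsdme, Pycard or Il18. Of 32851 RefSeq promoters of the same length, 8.3% hold a GAS match and 3.44% an ISRE match. A match describes letters, not binding. Of the other members, Gsdmd lies on chromosome 15 (75862327 to 75867408, forward), Gsdme on chromosome 6 (50188888 to 50263862, reverse), Pycard on chromosome 7 (127989708 to 127993867, reverse), Il18bp on chromosome 7 (102014885 to 102018690, reverse) and Il18 on chromosome 9 (50554827 to 50581840, forward). The windows of Il18bp and Gsdme lie inside these spans and do not reach the span starts at 102018690 and 50263862, which were therefore not searched. The Il18 window ends before its span begins, and the Casp12 match at -36 lies inside the span that begins at 5345430. Gsdmd was not among the promoters used here.

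Library totals ran from 668355 to 28550816 estimated counts with a median of 8644887, and 3 counts over a whole group correspond to 0.0389 to 0.335 CPM. The labels do not say that replicates were separate cultures, so p-values measure the spread between libraries, which may be technical. All 7 melanocyte markers were above 3 counts in unstimulated B16.1 (19998 to 20390 CPM summed), whereas in unstimulated YUMMER1.7 their sum was 18.7 to 25.5 CPM with Tyrp1 and Mlana at 0. Of 7 epithelial markers, unstimulated KPC.2 had 7 above 3 counts (5767 to 6180 CPM summed), Renca 6 (740 to 777), Panc02.3 5 (1975 to 2233), LLC 4 (293 to 322), MC38.7 2 (1.80 to 2.15) and CT26.2 1 (29.7 to 36.7). Epcam was at 0 in each of these but KPC.2, and Renca had all 4 kidney markers above 3 counts (253 to 287 CPM summed). These markers were not confined to Renca: unstimulated KPC.2 (47.2 to 56.3) and Panc02.3 (68.9 to 77.3) had 3 of 4 above 3 counts, and CT26.2 had 1 (10.4 to 13.9). Inflammasome genes are best known from myeloid cells. The 12 leukocyte and myeloid markers summed, unstimulated, to 163 to 180 CPM in KPC.2 (3 of 12 above 3 counts), 82.0 to 90.3 in Panc02.3 (5), 62.3 to 67.4 in Renca (8) and 2.81 to 18.5 in the other lines (4 to 7). Cd14 made up most of it in KPC.2 (166 CPM) and Panc02.3 (75.4), and Cd68 in Renca (41.9). Among these markers, Ptprc had a mean of at most 0.184 CPM in any group, and Adgre1 was at 0 in every group but CT26.2 with IFNb. Other markers of the list did have counts. In unstimulated Renca only Ptprc, Adgre1 and Tyrobp were at 0, and in Renca with IFNb 9 of 12 were above 3 counts. Whether such cells were present was not tested.

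With IFNg, 42 of the 64 combinations of member and line rose and 1 fell. Averaged over the 8 lines, 6 members rose, namely Casp1, Casp4, Casp12, Gsdmd, Il18 and Il18bp, beside 18.3% of all genes tested. Gsdme fell, beside 23.7% of all genes, and Pycard did not pass the test. The median log2 fold change of the members was 2.01, against -0.04 over all genes. By line, 7 members rose in B16.1 (27.6% of all genes), 6 in Renca (6.04%), 6 in YUMMER1.7 (9.79%), 5 in CT26.2 (4.97%), 5 in LLC (6.65%), 5 in MC38.7 (3.89%) and 5 in KPC.2 (13.8%). Panc02.3 had the lowest number, 3 of 8, although 23.2% of its genes rose. The single combination that fell was Gsdme in KPC.2, where 15.8% of genes fell.

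With IFNb, which shares its unstimulated libraries with the IFNg comparison, 24 combinations rose and 2 fell. The same 6 members rose on the mean of the lines, beside 13% of all genes, and Gsdme again fell, beside 17.3%. The members' median was 0.81, against -0.02 over all genes. The lines differed widely in how many members rose: 7 in MC38.7 (13.8% of all genes), 6 in LLC (17.6%), 5 in B16.1 (14.6%), 3 in Panc02.3 (3.33%), 2 in Renca (7.1%) and 1 in CT26.2 (1.97%). In KPC.2 and YUMMER1.7 no member passed edgeR's test in either direction, beside 2.52% and 0.384% of all genes that rose and 1.93% and 0.972% that fell. At an unadjusted p under 0.05 there were 0 in KPC.2 and 2, both downward, in YUMMER1.7. DESeq2 and limma-voom also called none there, and Gsdmd in KPC.2 passed with that line fitted alone (log2 0.18, adjusted p = 0.048). With YUMMER1.7 fitted alone, Casp4 was lower without NS replicate 3 (log2 -0.39, adjusted p = 0.043) and Gsdmd without IFNb replicate 1 (log2 -0.22, adjusted p = 0.034). KPC.2 with IFNb was the shallowest group, with 8749483 counts in all and 668355 in replicate 3, against up to 75811551 in other groups. Its test could miss changes: Casp4 there had log2 1.03 ± 0.55 (SE) on 17 counts in each group. Numbers of calls are therefore not comparable between lines at equal depth. The 2 that fell were Pycard in B16.1 (14.3% of genes fell) and Gsdme in LLC (21%).

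Set directly against each other, as given at these doses in different units, IFNg left 40 combinations higher than IFNb did and 5 lower. On the mean of the lines, Casp1, Casp4, Casp12, Gsdmd and Il18bp were higher with IFNg, beside 18% of all genes. None was lower in edgeR's test, and 0 at an unadjusted p under 0.05, beside 18.7% of all genes, though Il18 was lower by limma-voom (log2 -0.33, adjusted p = 0.013). By line, 7 members were higher with IFNg in B16.1 (26% of all genes), 6 in Renca (5.25%), 6 in YUMMER1.7 (9.09%), 5 in CT26.2 (2.51%), 5 in KPC.2 (10.9%), 4 in LLC (16.8%), 4 in Panc02.3 (22.6%) and 3 in MC38.7 (17.8%). Those higher with IFNb were Il18 in LLC (12.5% of all genes), Il18 and Gsdme in MC38.7 (10.5%) and Il18 and Gsdmd in Panc02.3 (30.4%).

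**Figure D1:**
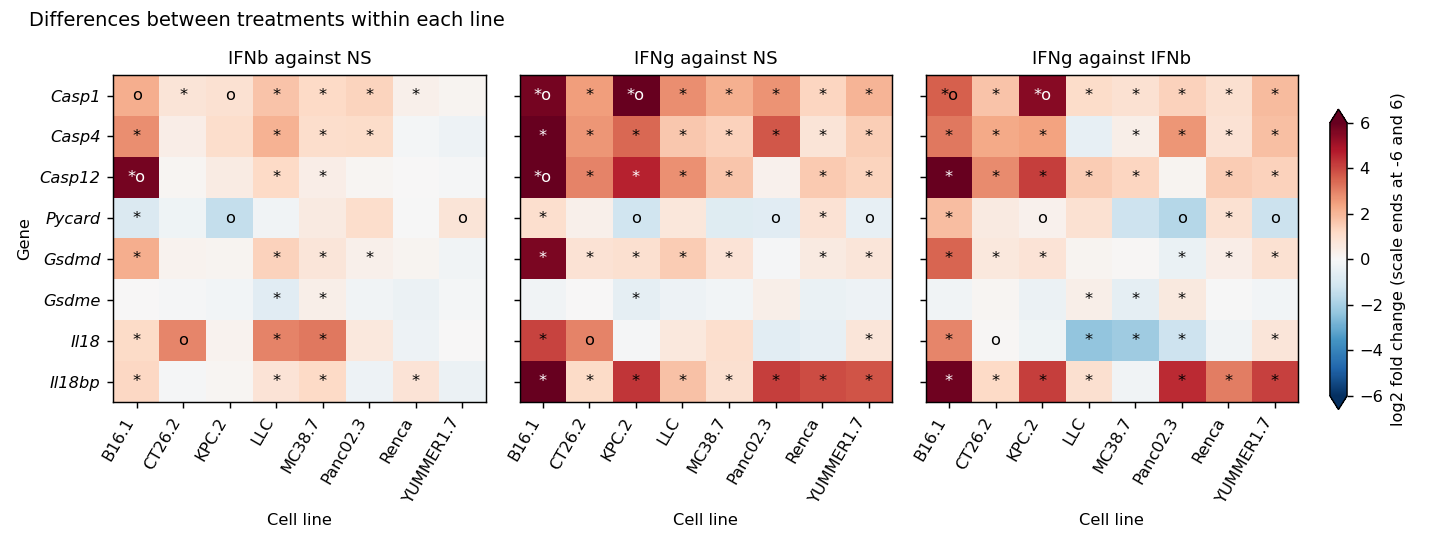
Log2 fold changes of the 8 members (rows) in the 8 lines (columns) in 3 panels, each interferon against NS and then IFNg against IFNb, with red above 0 and blue below 0; an asterisk marks an adjusted p under 0.05 and a circle a comparison in which 1 group had 3 or fewer counts in all. The IFNg panel holds 42 combinations that rose, against 24 in the IFNb panel, and the Il18 cells of LLC, MC38.7 and Panc02.3 are the blue cells with an asterisk in the Il18 row of the last panel.

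The response of Casp12 to IFNg ranged from no detectable change in Panc02.3 to a rise from no counts in B16.1. In B16.1 it had no counts in the 3 unstimulated libraries, 0.890, 0.795 and 0.163 CPM with IFNb, and 98.9, 86.7 and 81.5 CPM with IFNg. The 3 groups did not overlap, and the IFNg level was at least 764-fold higher than the unstimulated one (3 counts over the group taken as the floor; adjusted p = 2.3e-41) and 145-fold higher than with IFNb. KPC.2 went from 3.06, 2.27 and 2.11 CPM to 60.9, 72.6 and 58.0 CPM with IFNg, a 25.8-fold rise (log2 4.64 ± 0.15 SE, adjusted p = 3.0e-33). Rises of 7.83-fold in CT26.2, 6.72-fold in LLC, 3.22-fold in MC38.7, 2.94-fold in Renca and 2.52-fold in YUMMER1.7 also left no overlap between groups. Unstimulated levels were highest in YUMMER1.7 (49.7 CPM ± 1.11 SD) and Renca (34.9 ± 2.93), the lines with the smallest of those rises, and lowest in CT26.2 (1.89 ± 0.0875) and B16.1. Panc02.3 was the exception: its unstimulated libraries had 17.8, 20.7 and 21.7 CPM and its IFNg libraries 23.3, 18.4 and 32.0, groups that overlap (log2 0.26 ± 0.12, adjusted p = 0.074). That difference passed the threshold with DESeq2 (adjusted p = 0.027), with DESeq2 size factors in edgeR (0.03) and without replicate 2 (log2 0.43, adjusted p = 0.017).

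IFNb raised Casp12 in LLC, from 4.98, 5.47 and 5.77 to 12.2, 12 and 13.1 CPM (2.3-fold, adjusted p = 5.1e-12), in MC38.7 (1.28-fold, adjusted p = 5.2e-03) and in B16.1. The MC38.7 call was lost without replicate 2 (adjusted p = 0.077). Averaged over the lines, the Casp12 log2 fold change was 3.49 ± 0.06 (SE) with IFNg and 1.0 ± 0.16 with IFNb. Those means rest in part on B16.1, where a group without counts makes the fitted value depend on the prior count: over the other 7 lines they were 2.17 (adjusted p = 5.6e-40) and 0.33 (adjusted p = 1.1e-03). The IFNg responses differed between lines (adjusted p = 1.2e-33), as did the IFNb responses (2.8e-09).

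Casp4 rose with IFNg in all 8 lines, by 2.63 ± 0.07 on the log2 scale on average. In B16.1 its level was 1.37, 1.11 and 1.77 CPM unstimulated, 10.1, 11.5 and 7.82 with IFNb and 90.5, 90.8 and 90.3 with IFNg. These groups are far apart: the rise was 6.94-fold with IFNb (adjusted p = 9.7e-14) and 63.9-fold with IFNg (3.2e-36). Panc02.3, where Casp12 and Gsdmd did not pass the test, had a 14.2-fold rise of Casp4, from 2.49, 1.65 and 2.74 to 30.1, 35.0 and 32.3 CPM (adjusted p = 5.1e-24). Renca (24 CPM ± 4.33 SD) and YUMMER1.7 (21.1 ± 2.48) had the highest unstimulated levels, overlapped each other, and rose 1.68-fold and 2.81-fold. MC38.7 rose 2.62-fold from 7.24 CPM and LLC 3.24-fold from 1.06 CPM.

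IFNb raised Casp4 in B16.1, LLC, MC38.7 and Panc02.3 (mean over lines 1.0 ± 0.11, adjusted p = 2.5e-11). LLC stood apart in that IFNb gave at least as high a level as IFNg: 0.732, 1.57 and 0.869 CPM unstimulated, 5.21, 4.76 and 4.2 with IFNb, and 4.14 and 2.72 with IFNg. The IFNb and IFNg libraries did not overlap, but the difference did not pass the test (log2 -0.47 ± 0.20, adjusted p = 0.071), and it passed with DESeq2 (0.03) and with DESeq2 size factors in edgeR (0.047). In Panc02.3 the IFNb rise was 2.28-fold (adjusted p = 2.8e-03), and with that line fitted alone it lost its call without IFNb replicate 1 (0.051) or replicate 3 (0.052). In MC38.7 IFNg left Casp4 1.31-fold higher than IFNb did, with overlapping libraries (adjusted p = 0.025). That call was lost with DESeq2 size factors in edgeR (0.055), in the line fitted alone (0.054) and without replicate 2 (0.27) or 3 (0.28) of every group. With the line fitted alone it was also lost without any of 4 single libraries (IFNb replicates 2 and 3, 0.22 and 0.11, and IFNg replicates 2 and 3, 0.13 and 0.18). The responses differed between lines for IFNg (adjusted p = 6.5e-26) and for IFNb (3.1e-14).

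Casp1 rose with IFNg in all 8 lines too (mean log2 3.19 ± 0.14, adjusted p = 4.5e-27), but from very different starting levels. YUMMER1.7 went from 16.6, 18.0 and 15.6 CPM to 67.9, 73.2 and 64.9 (4.11-fold), CT26.2 from 6.31, 7.87 and 8.85 to 38.8, 51.2 and 38.8 (5.59-fold) and Renca from 20.0 and 21.0 to 46.6, 55.6 and 48.4 (2.45-fold). At the other end, B16.1 had no Casp1 counts in 3 unstimulated libraries and reached only 0.653, 0.797 and 0.561 CPM (17 counts in all) with IFNg, at least 5.75-fold above the floor of 3 counts over the group. KPC.2 had 1 count in its 3 unstimulated libraries, 1 with IFNb, and 5.34, 5.67 and 5.36 CPM (120 counts) with IFNg. Thus B16.1 with IFNg remained below the unstimulated level of 6 lines, LLC, MC38.7 and Panc02.3 among them (1.68 to 2.23 CPM on average, overlapping one another). Without B16.1 the mean IFNg response was 2.83 (adjusted p = 8.6e-38). The IFNg responses differed between lines (adjusted p = 2.1e-12). Those to IFNb did so in edgeR's test (1.3e-08) and not with limma-voom (0.37).

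With IFNb Casp1 rose 3.3-fold in LLC (1.68, 2.71 and 2.17 to 6.97, 7.36 and 7.35 CPM, adjusted p = 9.9e-14), 2.39-fold in Panc02.3, 2.22-fold in MC38.7, 1.64-fold in CT26.2 and 1.24-fold in Renca. The mean over lines, which includes B16.1 (log2 2.16 from 1 count against 0) and KPC.2 (0.90 from 1 count against 1), was 1.06 ± 0.34 (adjusted p = 0.029). That call was not firm: it was lost without replicate 1 of every group (log2 0.67, adjusted p = 1), without replicate 3 (0.053), and on the mean without LLC (0.086), MC38.7 (0.064) or Panc02.3 (0.06). The Renca call (adjusted p = 0.047) was lost with DESeq2 size factors in edgeR (0.052), without the filter (0.075) and in the line fitted alone (0.068). With that line fitted alone it was also lost without any 1 of its IFNb libraries (0.11 to 0.24). Leaving out either unstimulated library there leaves 1, and the log2 fold change was then 0.29 or 0.37, with the call lost. The CT26.2 call (2.8e-03) was lost without replicate 1 of every group (0.29) and in the line fitted alone (0.11), there with adjusted p up to 0.36 without NS replicate 1. That of Panc02.3 (2.1e-05) was lost without IFNb replicate 1 (0.058), IFNb replicate 2 (0.12) or unstimulated replicate 3 (0.15) of that line fitted alone. LLC and MC38.7 kept their calls in every alternative run.

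**Figure D2:**
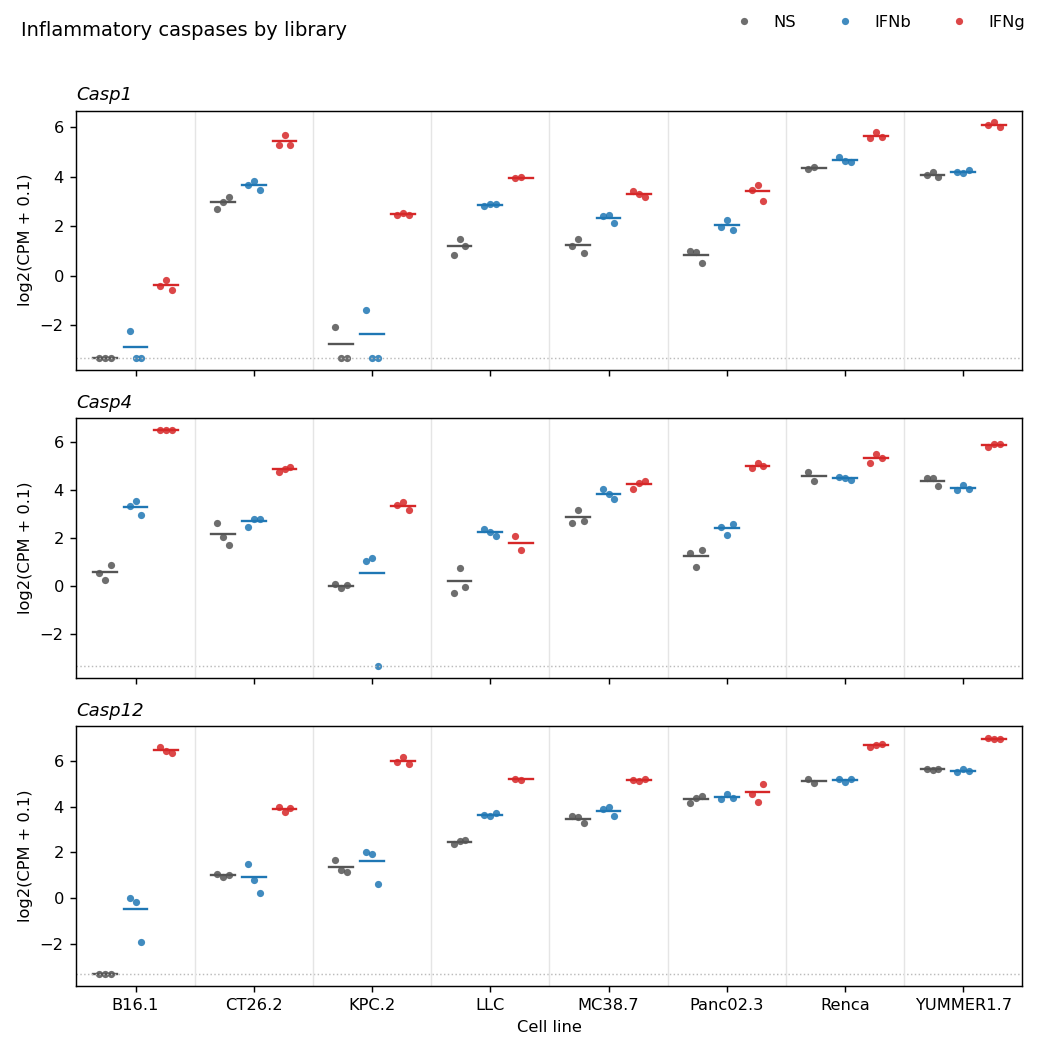
Levels of Casp1, Casp4 and Casp12 in each library as log2(CPM + 0.1), by line, with grey points for NS, blue for IFNb and red for IFNg; bars mark the group's mean CPM and the dotted line a level of 0. Red points lie above grey ones in all 8 lines for Casp1 and Casp4 and in 7 for Casp12, where Panc02.3 overlaps, and B16.1 spans from 0 to 98.9 CPM for Casp12.

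Gsdmd, the executioner of the pathway, was expressed in every line and rose with IFNg in 7 (mean log2 1.38 ± 0.04, adjusted p = 3.2e-36). In B16.1, which had the lowest unstimulated level, it went from 2.37, 1.23 and 2.29 CPM to 9.90, 8.74 and 7.66 with IFNb and 90.5, 104 and 105 with IFNg, a 50.8-fold rise (adjusted p = 1.5e-40). KPC.2 had the highest level without stimulation, 162, 161 and 148 CPM, and reached 311, 311 and 306 with IFNg (1.97-fold, adjusted p = 8.2e-17). Over the 8 lines the means ran from 1.96 to 157 CPM unstimulated and from 15.7 (CT26.2) to 309 CPM with IFNg. LLC rose 2.9-fold, CT26.2 1.85-fold, MC38.7 1.75-fold, YUMMER1.7 1.67-fold and Renca 1.46-fold. The CT26.2 rise (adjusted p = 2.7e-04) kept its call in the line fitted alone and lost it without IFNg replicate 1 or 3 or any unstimulated replicate, with adjusted p up to 0.12. The difference between IFNg and IFNb in CT26.2 was lost in the line fitted alone (0.22), with limma-voom (0.16) and without replicate 1 (0.41) or 3 (0.16) of every group.

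In Panc02.3 Gsdmd responded to IFNb and not detectably to IFNg. Its libraries had 54.2, 59.9 and 60.2 CPM unstimulated, 72.7, 75.7 and 69.5 with IFNb and 59.3, 51.2 and 51.1 with IFNg. The IFNb libraries lay above both other groups, which overlapped each other. The IFNb rise was 1.25-fold (adjusted p = 7.9e-03), and the IFNg level was below the IFNb level (log2 -0.42 ± 0.09, adjusted p = 1.4e-04). The IFNb rise lost its call without replicate 1 (0.091) or 2 (0.075) of every group, and in the line fitted alone without any 1 of its IFNb libraries or unstimulated replicates 1 or 3 (0.076 to 0.14). In LLC the 2 interferons gave like levels, 32.7, 32.5 and 33.8 CPM with IFNb and 36.5 and 37.7 with IFNg, from 12.7, 14.4 and 11.3 (IFNg against IFNb, log2 0.17 ± 0.09, adjusted p = 0.18). The Gsdmd responses differed between lines for IFNg (6.9e-33) and IFNb (1.1e-16).

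Gsdme, by contrast, changed little. Its mean log2 fold change was -0.16 ± 0.05 with IFNb (adjusted p = 0.015) and -0.19 ± 0.05 with IFNg (1.7e-03). The IFNb call was lost without replicate 1, 2 or 3 of every group (0.07, 0.3 and 0.053) and on the mean without LLC (0.33) or Renca (0.051), and the IFNg call without replicate 3 (0.097). In LLC it fell with IFNb from 17.9, 20.8 and 21.8 CPM to 12.2, 13.1 and 13.1, without overlap (log2 -0.66 ± 0.12, adjusted p = 5.5e-06). In KPC.2 it fell with IFNg from 19.7, 19.6 and 20.4 CPM to 13.7, 15.3 and 12.5 (log2 -0.53 ± 0.14, adjusted p = 2.6e-03), a call lost without replicate 3 of every group (0.092). In MC38.7 it rose with IFNb, from 11, 10.1 and 8.30 to 13.4, 11.3 and 13.6 CPM (adjusted p = 0.044), and it was lost without replicate 1 (0.069) or 3 (0.41) of every group. With that line fitted alone it was also lost without IFNb replicate 1 (0.15) or 3 (0.076) or unstimulated replicate 2 (0.065) or 3 (0.12). Levels ranged from 3.86 CPM ± 1.71 SD in Renca with IFNg to 42.1 ± 2.35 in unstimulated YUMMER1.7. With IFNg some alternatives made further calls: higher in Panc02.3 with DESeq2 (log2 0.40, adjusted p = 0.025), with DESeq2 size factors in edgeR (0.033) and in the line fitted alone (0.012). It was lower with limma-voom and in the line fitted alone in LLC (log2 -0.30, adjusted p = 0.021 and 0.014) and YUMMER1.7 (log2 -0.28 and -0.25, 0.017 and 0.01). The responses differed between lines for IFNb (7.3e-04) and IFNg (0.01), and neither call held without replicate 3 of every group (0.19 and 0.078). The annotation of Gsdme overlaps that of Mpp6 on the genome. Other genes share 0.165% of its transcript 31-mers (runs of 31 bases), and Mpp6 is not among those genes. The strand setting of the authors' counting is not given in the sources used here.

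Per kilobase of exon model, the levels of both gasdermins can be set side by side. The exon models are 2377 bp for Gsdmd and 12742 bp for Gsdme, so the order depends on this scale. On it Gsdmd stood above Gsdme in 7 of the 8 unstimulated lines, by 66.1 to 1.56 CPM per kb in KPC.2 and 47.2 to 3.31 in YUMMER1.7. Unstimulated B16.1 had the opposite order, 0.826 for Gsdmd and 1.61 for Gsdme, and with IFNg Gsdmd was above Gsdme there too (41.9 and 1.38). In CPM, not divided by length, the order turned in CT26.2 (8.47 for Gsdmd and 24.7 for Gsdme) and LLC (12.8 and 20.1).

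Pycard, the adaptor, was low in most lines. Group means were at most 1.57 CPM in CT26.2 and at most 0.488 CPM in KPC.2, LLC, MC38.7, Panc02.3 and YUMMER1.7 under any treatment, and only B16.1 and Renca had more. In B16.1 the unstimulated libraries had 18.1, 21.7 and 22.2 CPM, the IFNb libraries 12.1, 9.94 and 12.1, and the IFNg libraries 39.8, 37.6 and 47.6. The 3 groups did not overlap: Pycard fell with IFNb (log2 -0.86 ± 0.23, adjusted p = 2.6e-03) and rose with IFNg (1.01 ± 0.22, adjusted p = 5.6e-05). The IFNb call was lost without replicate 2 of every group (0.094). Renca rose with IFNg from 4.86 and 5.88 to 8.58, 11.2 and 9.58 CPM (log2 0.88 ± 0.28, adjusted p = 0.025). That call was lost without replicate 2 or 3 of every group and without unstimulated replicate 2 in the line fitted alone. Each of these refits leaves 1 unstimulated Renca library. Over all alternatives run, its log2 fold change was 0.66 to 1.04. Neither the mean over lines nor the difference between lines in response passed the test for Pycard, apart from the difference between lines with IFNg when replicate 1 was left out (0.02). Of its transcript 31-mers 12.7% are shared with other genes, whereas Casp1, Casp12, Gsdmd and Il18 share none.

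**Figure D3:**
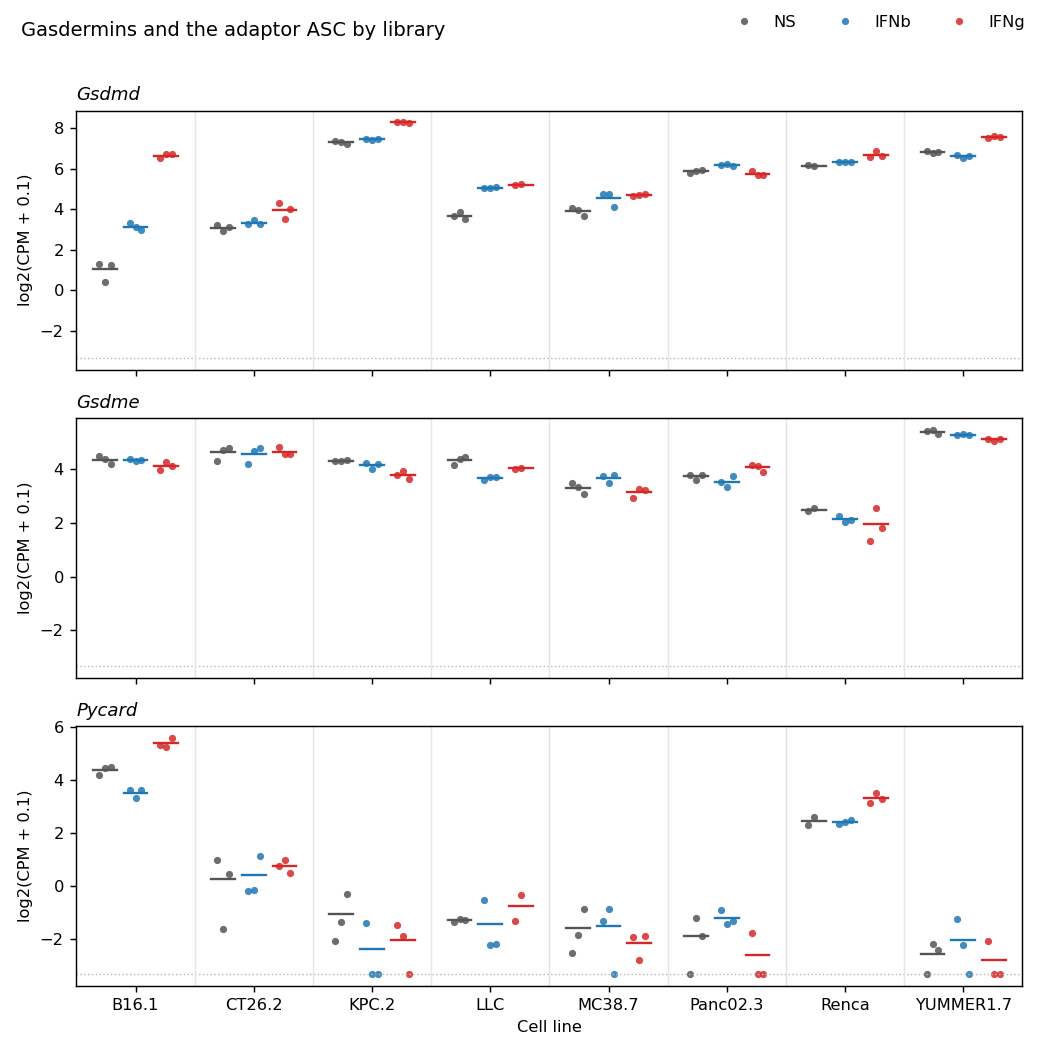
Levels of Gsdmd, Gsdme and Pycard in each library as log2(CPM + 0.1), by line, with grey points for NS, blue for IFNb and red for IFNg; bars mark the group's mean CPM and the dotted line a level of 0. Gsdmd is present in every library and in B16.1 reaches 105 CPM with IFNg, the Gsdme groups lie close together in every line, and Pycard is above 2 CPM in no library outside B16.1 and Renca but 1 of CT26.2 (2.10 with IFNb).

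The members therefore combined differently by line. With IFNg, B16.1 had Pycard at 41.7 CPM ± 5.27 SD, Gsdmd at 99.7 ± 7.93 and Casp1 at 0.670 ± 0.119. YUMMER1.7 had Gsdmd at 187 CPM ± 4.73 and Casp1 at 68.7 ± 4.2 with Pycard at 1 count in 3 libraries. Renca had all of these genes, with Casp1 at 50.2 CPM ± 4.79, Pycard at 9.79 ± 1.32 and Gsdmd at 103 ± 11.5.

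Which interferon gave the higher Il18 level differed by line. LLC had 1.61, 1.19 and 1.68 CPM unstimulated, 11.8, 10.3 and 12.8 with IFNb and 2.07 and 2.46 with IFNg. The IFNb libraries lay far above the others, a 7.81-fold rise (log2 2.97 ± 0.21, adjusted p = 2.7e-18), while the IFNg rise did not pass the test (0.61 ± 0.24, adjusted p = 0.1). MC38.7 had the same order at a lower level, 0.143, 0.0864 and 0.0902 CPM unstimulated (4 counts), 1.09, 1.03 and 1.17 with IFNb (10.3-fold, adjusted p = 3.1e-07) and 0.279, 0.218 and 0.206 with IFNg (adjusted p = 0.58). B16.1 had the reverse: 2.49, 1.23 and 1.87 CPM unstimulated, 4.45, 4.5 and 3.26 with IFNb and 31.2, 33.5 and 29.2 with IFNg, a rise of 2.18-fold with IFNb (2.9e-04) and 16.8-fold with IFNg (8.2e-24). IFNg against IFNb was thus negative in LLC (log2 -2.36 ± 0.22, adjusted p = 2.5e-13) and MC38.7 (-2.14 ± 0.34, 1.6e-06) and positive in B16.1 (2.92 ± 0.20, 2.9e-19).

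YUMMER1.7, the other melanoma line, raised Il18 with IFNg from 7.25, 7.91 and 7.60 to 10.5, 13.6 and 14.1 CPM (1.68-fold, adjusted p = 1.8e-03), a call lost without replicate 3 of every group (0.09). There IFNg was above IFNb (log2 0.74, adjusted p = 2.8e-03), which was lost without replicate 2 (0.11) or 3 (0.12). In Panc02.3 neither interferon passed the test against the unstimulated libraries, but the IFNg libraries (1.71, 0.937 and 2.94 CPM) lay below the IFNb libraries (5.52, 3.45 and 3.97; log2 -1.24 ± 0.30, adjusted p = 4.3e-04). That call was lost without replicate 1 of every group (0.07) and, with Panc02.3 fitted alone, without IFNb replicate 1 (0.12) or 3 (0.055) or IFNg replicate 1 (0.11) or 2 (0.12). KPC.2 stayed between 2.81 and 5.78 CPM in all 9 libraries, Renca was at or below 0.907 CPM, and CT26.2 had 0, 1 and 1 counts in its NS, IFNb and IFNg groups. The annotation of Il18 overlaps those of Bco2 and Tex12 on the genome, but its transcripts share no 31-mers with those of other genes on either strand. The strand setting of the authors' counting is not given. The mean over lines was 1.34 ± 0.32 with IFNb (adjusted p = 3.8e-03) and 1.03 ± 0.30 with IFNg (0.015), the 2 interferons not differing (-0.31 ± 0.23, adjusted p = 0.45). These means depend on CT26.2: without it they were 1.12 (1.1e-11) and 0.75 (1.2e-06), and IFNg was below IFNb (log2 -0.36, adjusted p = 3.0e-03). Without B16.1 the IFNg mean did not pass (0.59, adjusted p = 0.2). Nor did the IFNb mean without replicate 1 of every group (1.03, adjusted p = 1) or the IFNg mean without replicate 3 (0.62, adjusted p = 1). The difference between lines had adjusted p-values of 1.6e-12 for IFNb and 1.4e-17 for IFNg.

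Il18bp, the antagonist, rose with IFNg in all 8 lines (mean log2 3.38 ± 0.07, adjusted p = 5.0e-43). B16.1 went from 1.37, 1.23 and 1.46 CPM to 190, 191 and 188 (140-fold, adjusted p = 1.3e-40), with 2.56, 4.24 and 3.09 under IFNb between them (2.44-fold, 2.5e-03). YUMMER1.7 went from 8.18, 8.87 and 5.92 to 99.4, 104 and 103 CPM (13.3-fold), and the rise was 20.8-fold in Panc02.3, 19.4-fold in KPC.2 and 14.9-fold in Renca. All of these left the IFNg libraries apart from the unstimulated ones. Smaller rises were measured in LLC (3.37-fold), CT26.2 (2.2-fold) and MC38.7 (1.93-fold). That of CT26.2 did not pass in the line fitted alone (0.051; up to 0.19 with 1 library left out), and that of MC38.7 (1.5e-03) was lost without replicate 2 of every group (0.1) or without unstimulated replicate 2 of the line fitted alone (0.051).

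With IFNb Il18bp rose in B16.1, LLC, MC38.7 and Renca, and the mean over lines was 0.44 ± 0.12 (adjusted p = 2.1e-03; 0.14 without replicate 2). The B16.1 call was lost without replicate 2 of every group (0.086) and the LLC call without replicate 3 (0.11). MC38.7 was the line in which both interferons left overlapping levels of Il18bp, 4.24, 5.78 and 5.16 CPM with IFNb and 4.19, 4.54 and 4.19 with IFNg (log2 -0.22 ± 0.18, adjusted p = 0.4). The call for the Renca rise with IFNb (1.78-fold, adjusted p = 0.04) was lost with limma-voom (0.084). It was also lost without replicate 2 or 3 of every group and without unstimulated replicate 2 of the line fitted alone. Each of these refits leaves 1 unstimulated Renca library. Over all alternatives run, the log2 fold change was 0.65 to 0.95. Il18bp responses differed between lines for IFNg (5.7e-25) and for IFNb (1.2e-04).

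**Figure D4:**
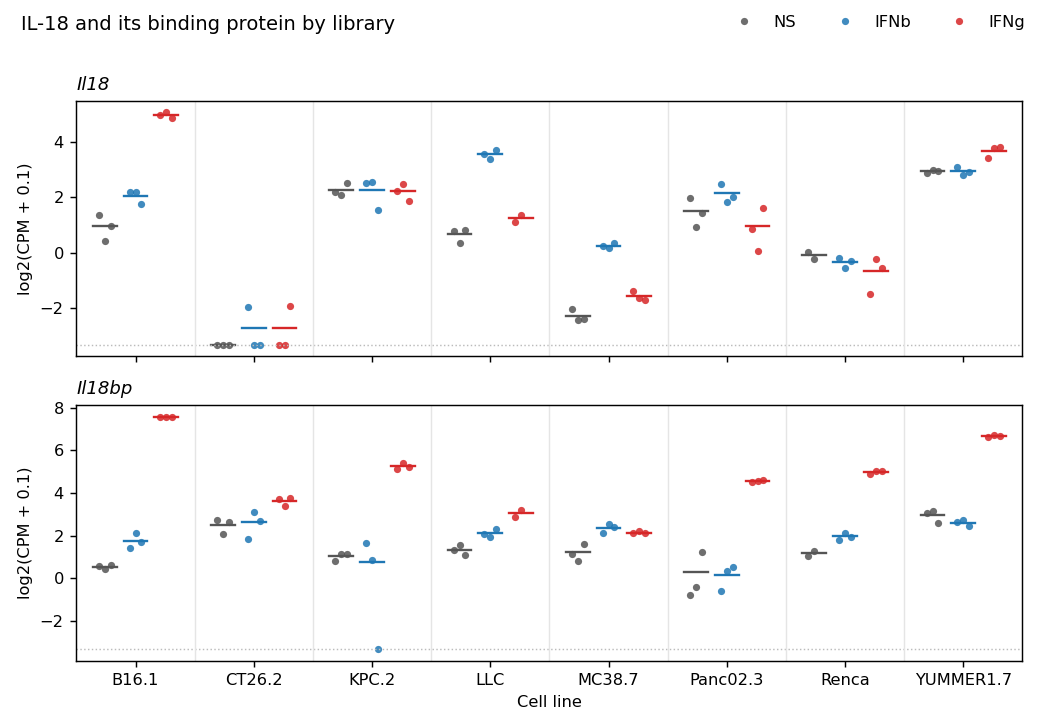
Levels of Il18 and Il18bp in each library as log2(CPM + 0.1), by line, with grey points for NS, blue for IFNb and red for IFNg; bars mark the group's mean CPM and the dotted line a level of 0. Blue points are highest for Il18 in LLC (10.3 to 12.8 CPM) and MC38.7 (1.03 to 1.17), red points in B16.1 (29.2 to 33.5), whereas for Il18bp red points lie above grey ones in all 8 lines.

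Per kilobase of exon model, the level of Il18bp was above that of Il18 in all 8 lines with IFNg, for example 62.7 and 30.4 CPM per kb in B16.1 and, with a smaller gap, 2.71 and 2.19 in LLC. Without stimulation Il18 was the higher of both in 6 lines on this scale, the exceptions being CT26.2 (1.84 for Il18bp, 0 for Il18) and MC38.7 (0.738 and 0.103). With IFNb in LLC Il18 was at 11.3 and Il18bp at 1.39 CPM per kb. In CPM, not divided by length, Il18bp was the higher also in unstimulated LLC (2.43 and 1.49), Renca (2.13 and 0.835) and YUMMER1.7 (7.66 and 7.58), which leaves Il18 higher in 3 lines. The exon models are 1031 bp for Il18 and 3026 bp for Il18bp and come from the annotation, since the authors' effective lengths were not used here.

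Without stimulation all 8 members differed between lines, as did 96.5% of all genes (adjusted p from 5.9e-15 for Il18bp to 1.0e-49 for Gsdmd). The response to IFNb differed between lines for 7 members, all but Pycard, beside 48.2% of all genes, and so did the response to IFNg, beside 69.2%. Ordered by unstimulated level, Renca and YUMMER1.7 led for Casp1, Casp4 and Casp12, and B16.1 was last or within the overlapping group at the lower end for those genes and last for Gsdmd. With IFNg B16.1 moved to first for Casp4 (90.5 CPM ± 0.273 SD, no overlap with the next line), Il18 and Il18bp, and stayed last for Casp1. In B16.1 other measures moved with IFNg as well: the summed melanocyte markers were 9124 to 9592 CPM, below the unstimulated range given above, and the mitochondrial share of counts was 2.82% to 2.97% against 1.75% to 2.08%. With IFNb the melanocyte sum was also lower (12621 to 13045 CPM) and the mitochondrial share higher (2.2% to 2.75%). The mesenchymal sum in B16.1 was 3182 to 3283 CPM with IFNg, against 1414 to 1496 unstimulated. The 12 leukocyte markers summed to 13.3 to 15.8 CPM in B16.1 with IFNg, against 2.81 to 3.08 unstimulated. Cd68 accounted for most of it (12.8 and 1.20 CPM on average), and with IFNg Itgam, Adgre1, Cd14 and Tyrobp were at 0 and Ptprc at 1 count. In LLC with IFNb the epithelial sum was 126 to 128 CPM (293 to 322 unstimulated), the mesenchymal sum 4106 to 4195 CPM (5911 to 6030) and the mitochondrial share 1.42% to 1.45% (1.95% to 2.13%). With IFNg the epithelial sum was 9240 to 9743 CPM in KPC.2 and 1269 to 1523 in Renca, above the unstimulated ranges. In Panc02.3 with IFNg the mesenchymal sum was 7511 to 8108 CPM, against 12146 to 15011 unstimulated, and in YUMMER1.7 13142 to 13536 against 18860 to 19364. The part of these measures in the results was not tested.

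Other genes of the pathway were counted on lists chosen with earlier results of these data known, on the mean of the 8 lines. Of 12 inflammasome sensors, which start the pathway, 8 passed the filter, and 2 of these rose with each interferon, beside 18.3% of all genes with IFNg and 13% with IFNb. They were Naip2 (0.61 ± 0.05 with IFNg, 0.46 ± 0.06 with IFNb) and Naip5 (0.58 ± 0.18 and 0.59 ± 0.18, with 1 line near 0 counts), both receptors for bacterial proteins. Of 15 regulators and other proteases tested, 10 rose and 4 fell with IFNg (18.3% and 23.7% of all genes), and 9 rose and 1 fell with IFNb (13% and 17.3%). The largest changes were in Gbp2 (7.94 ± 0.04 with IFNg, 3.06 ± 0.05 with IFNb) and Gbp5 (5.36 ± 0.06 and 1.79 ± 0.10), GTPases that help expose lipopolysaccharide to the caspase encoded by Casp4, and in the transcription factor Irf1 (3.80 ± 0.03 and 0.76 ± 0.03). The 14 of them with reads in all groups had medians of 0.37 and 0.15, against -0.04 and -0.02 over all genes. Of 9 tested genes for IL-1 and IL-18 ligands, receptors and antagonists, 2 rose with IFNg and 1 with IFNb (18.3% and 13% of all genes). They were Il1rl1 (1.41 ± 0.22 with IFNg, 1.23 ± 0.32 with IFNb, with 1 line near 0 counts) and, with IFNg only, Il18rap (1.11 ± 0.10), a subunit of the IL-18 receptor. In edgeR's test 0 fell, also at an unadjusted p under 0.05, beside 23.7% of all genes with IFNg and 17.3% with IFNb. Of 8 other gasdermin genes only Gsdmc passed the filter, and it did not pass the test on the mean of the lines, 7 of which have 3 or fewer counts in a group. In B16.1 it fell with IFNg (log2 -0.31), beside 26.5% of all genes.

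The mean log2 CPM of the members over the 24 groups gave a description of which patterns are alike; the points share lines and libraries. Among the members, Pearson correlations were highest for Casp4 with Il18bp (0.749), Casp12 with Gsdmd (0.713) and Casp1 with Casp12 (0.685), and those of Gsdme or Pycard with any other member lay between -0.32 and 0.32. Over all genes tested, the pattern most like that of Il18bp included Gbp11 (0.902) and Gbp10 (0.880), like that of Casp4 Zup1 (0.892), Psmb9 (0.824) and Ripk2 (0.818), like that of Casp1 Gpat3 (0.893), and like that of Casp12 Trmt1l (0.868). For Gsdmd they were Asap3 and H2-T23 (both 0.855), for Gsdme Tmem181a (0.907), for Pycard Pianp (0.946) and for Il18 Itm2c (0.889) and Bco2 (0.879), whose annotation overlaps that of Il18.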

How the data were processed

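RNA-seq libraries of 8 cell lines and 3 treatments were analysed from gene-level estimated counts as deposited by the authors, which need not be whole and were rounded. The submitters' processing notes name Trimmomatic 0.36, kallisto and the build GRCm38 (mm10); the strand setting is not given in the sources used here. Counts were fitted with edgeR 4.0.16 in R 4.3.3 (TMM scaling, filterByExpr by group, quasi-likelihood fit of 24 group means over 70 libraries), with Benjamini-Hochberg adjustment over 16147 genes and a threshold of 0.05. DESeq2 1.42.0 and limma 3.58.1 (voom), among others, were alternatives. Leaving out replicate 2 or 3 of every group leaves 1 unstimulated Renca library, and leaving out replicate 1 or 3 leaves 1 LLC library with IFNg. The SE was taken as the size of the log2 fold change over the root of the F statistic and is unstable where a group has no counts. A fold is a ratio of mean CPM, while a log2 fold change is the fitted value. Where a group had no counts, 3 counts over the group served as the floor, which covers counting error only. The fit was also run on counts simulated with its own estimate of the spread. There the changed genes were picked above a minimum mean level and given equal changes in all lines. That run therefore does not bear on members near 0 counts or on responses that differ between lines. The members and the lists of other genes were chosen with earlier results of these data known. All members are described, and for each pathway list up to 3 called genes with the largest change on the mean of the lines are named. The 3 genes most alike each member were taken by Pearson correlation, and those printed were chosen among them after their values were seen. Replicate numbers recur across treatments, but the labels do not say that a number marks a shared culture, day or batch, so no pairing was used. Same-numbered libraries did not deviate together (correlations of -0.170 to 0.101 over genes).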

Additional observations from a re-analysis of the deposited data

Results flagged for a closer look

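The response to an interferon differed between the 8 lines for 7 of the 8 members, by edgeR's quasi-likelihood F test of the interaction of line and treatment with Benjamini-Hochberg adjustment. For IFNb the adjusted p was 1.3e-08 for Casp1, 3.1e-14 for Casp4, 2.8e-09 for Casp12, 1.1e-16 for Gsdmd, 7.3e-04 for Gsdme, 1.6e-12 for Il18 and 1.2e-04 for Il18bp. For IFNg it was 2.1e-12 for Casp1, 6.5e-26 for Casp4, 1.2e-33 for Casp12, 6.9e-33 for Gsdmd, 0.01 for Gsdme, 1.4e-17 for Il18 and 5.7e-25 for Il18bp. The Casp1 call for IFNb was lost with limma-voom (0.37), and the Gsdme calls without replicate 3 of every group (0.19 for IFNb, 0.078 for IFNg). A difference between lines was common among all genes tested, 48.2% of them for IFNb and 69.2% for IFNg. In the case of Il18 the direction between the interferons differed too, with IFNb above IFNg in LLC, MC38.7 and Panc02.3 and IFNg above IFNb in B16.1 and YUMMER1.7. The Panc02.3 call was lost in some alternatives (adjusted p up to 0.12), and the YUMMER1.7 call without replicate 2 (0.11) or 3 (0.12).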

How the results depend on the processing

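No call changed sign under any alternative run. The replicate block kept all 240 values on their side of the threshold, with 42 combinations of member and line that rose with IFNg and 24 with IFNb. Leaving out the shallowest library also kept all 240, and DESeq2 size factors in edgeR kept 234. Leaving out a replicate of every group kept 204 to 214, with 12 to 18 calls lost. The number of members that fell on the mean of the lines with IFNb, 1 in the report, was 0 without replicate 1, 2 or 3 (lowest and highest 0) and 0 without LLC or Renca; with IFNg it was 0 without replicate 3. Of the combinations that fell with IFNb, 1 was left without replicate 2. Of those that fell with IFNg there were 3 with limma-voom, 3 with each line fitted alone and 0 without replicate 3. On the mean of the lines, 1 member, Il18, was lower with IFNg than with IFNb by limma-voom and 1 without CT26.2, and the combinations lower with IFNg numbered 3 to 5 when replicate 1, 2 or 3 was left out. The cause was not tested. Leaving out single libraries with each line fitted alone was added after seeing the data and kept 1316 of 1458 values, with 72 calls lost and 28 gained. The planned refits of the whole table without each single library were not run. Depth limits genes near 0 counts, Pycard outside B16.1 and Renca and Il18 in CT26.2 among them.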

Other observations

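Upstream of the members, the sensors were spread unevenly over the lines, given here as group means with no test. Nlrc4, the sensor partner of the NAIP receptors, stood at 39.2 CPM ± 3.67 (SD, n = 3) in unstimulated KPC.2 and at or below 0.300 CPM in the other 7 unstimulated lines. Aim2, a sensor of cytosolic DNA, had 52.1 CPM ± 4.98 in unstimulated Panc02.3, 31.1 ± 2.37 in CT26.2, 28.1 ± 0.252 in LLC, 18.1 ± 1.43 in YUMMER1.7 and 8.67 ± 1.62 in KPC.2. In B16.1, MC38.7 and Renca its unstimulated means were 0.663, 0.498 and 0.384 CPM. The lines with the higher Pycard levels, B16.1 and Renca, were thus among those with the lowest Aim2 levels. Nlrp3, the sensor best known from macrophages, was at most 1.57 CPM in any group.

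Il1b, the other cytokine precursor cut by caspase-1, had 0 counts in every unstimulated library and at most 2 counts in any group of line and treatment. Gsdmc, another gasdermin, was confined to B16.1 among these libraries, with 124 CPM ± 2.88 unstimulated, 129 ± 2.38 with IFNb and 99.5 ± 2.17 with IFNg, apart from 1 count in LLC with IFNg. The IL-18 receptor subunit Il18rap was highest in YUMMER1.7, at 186 CPM ± 19.8 unstimulated and 288 ± 5.53 with IFNg. The other subunit, Il18r1, was highest in Renca, at 3.45 CPM ± 1.18 (n = 2) unstimulated and 11.9 ± 0.580 (n = 3) with IFNg. These genes were picked from the pathway lists after their values were seen.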
